A study of Mus musculus with 34 samples.

Results

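The MHC class II genes Cd74, H2-Aa, H2-Ab1, H2-Eb1 and Ciita were followed through the hippocampus of 34 mice. They are 5 of the 55385 genes in the deposited tables, were picked by gene name and not by any measured value, and all 5 passed the filter on low counts that left 17518 genes for testing. Poly(A) RNA was sequenced from 1 library per animal, and all animals were 6 months old. The 5xFAD-Dp16 mice, which carry both modifications below, gave 4 tofacitinib and 3 sham animals. The 5xFAD mice carry human amyloid precursor protein and presenilin transgenes with familial Alzheimer's disease mutations, driven by the neuronal Thy1 promoter, and gave 5 tofacitinib and 4 sham animals. The Dp16 mice have a stretch of mouse chromosome 16 in triplicate, the one that matches human chromosome 21 (called the extra segment here), and gave 5 tofacitinib and 3 sham animals. The wild-type C57BL/6J mice (WT) gave 5 tofacitinib and 5 sham animals. Tofacitinib, a drug that blocks Janus kinases (JAK), was given by gavage at 15 mg/kg every day for 1 month, and sham animals received 0.5% methylcellulose in the same way.

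MHC class II molecules are pairs of an alpha and a beta chain that show peptides from engulfed proteins to CD4+ T cells. The invariant chain, made from Cd74, holds the pair together and fills its groove until proteases of the endosome cut it away and the H2-DM proteins load a peptide. Ciita is the coactivator that switches the whole group on. It binds no DNA itself and docks on a complex of RFX, NF-Y and CREB factors at the X and Y boxes in front of each gene, and interferon-gamma induces it through Janus kinases. In the healthy brain these genes are low in most microglia and higher in dendritic cells, B cells and some macrophages of the meninges, choroid plexus and vessel walls. Microglia near amyloid plaques are known to raise them.

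H2-Aa encodes the alpha chain of the molecule I-A (34282744 to 34287823, minus strand), and H2-Ab1 its beta chain (34257689 to 34269419, plus strand). H2-Eb1 encodes the beta chain of the molecule I-E (34305867 to 34316674, plus strand). All 3 lie on chromosome 17 of the build GRCm38, outside the extra segment. The RefSeq promoter table (GRCm38.p6) held 2 of the 5 members, and the 250 bases before their starts are shown because these are where the Ciita complex docks. Capitals mark matches to a Y box (CCAAT, read on either strand) and to an X box core (AACNGATG).
H2-Aa, chr17:34287824-34288073, minus strand: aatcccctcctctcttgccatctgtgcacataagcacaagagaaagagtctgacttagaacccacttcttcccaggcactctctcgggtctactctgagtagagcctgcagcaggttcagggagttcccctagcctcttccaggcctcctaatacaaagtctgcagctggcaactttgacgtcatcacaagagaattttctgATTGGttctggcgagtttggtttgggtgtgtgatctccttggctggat
H2-Eb1, chr17:34305617-34305866, plus strand: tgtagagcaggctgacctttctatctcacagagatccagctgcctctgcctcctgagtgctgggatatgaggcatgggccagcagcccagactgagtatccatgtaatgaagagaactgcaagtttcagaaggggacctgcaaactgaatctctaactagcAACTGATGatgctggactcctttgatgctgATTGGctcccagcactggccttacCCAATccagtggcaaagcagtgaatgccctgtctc
The H2-Aa window held a Y box at -48 to -44, counted back from the gene's start, and no match to the X box core. An X box spelled otherwise would be missed by these letters, so its absence is not shown. The H2-Eb1 window held the X box core at -89 to -82 and Y boxes at -59 to -55 and -35 to -31. Of 32851 promoter windows of this length, 33.8% held a Y box and 2.0% the X box core, so the first is common by letters alone. No match to a gamma-activated site (TTCNNNGAA, in 7.0% of windows) or to the core of the interferon-stimulated element (in 3.0%) was found in either window, on either strand. A match of letters is a description and not a site shown to be bound.

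The group was weakly expressed. Levels between genes are compared per length, in the authors' RPKM (reads per kilobase per M reads of the library). Over the 34 animals Cd74 had the highest level of the 5 genes, 7.19 ± 4.79 RPKM (SD, n = 34). It was followed by H2-Ab1 at 3.12 ± 2.26 RPKM, H2-Aa at 2.68 ± 2.04 RPKM and H2-Eb1 at 2.01 ± 1.64 RPKM. Ciita was far below them at 0.0176 ± 0.0254 RPKM, with 0 to 12 reads in a library and no read in 16 of 34. The H2-Ea pseudogene (H2-Ea-ps) had 0 counts in all 34 libraries, which allows up to 3 counts in each. C57BL/6 mice are known to lack a working H2-Ea gene and hence I-E at the cell surface, so the H2-Eb1 chain has no partner in that strain, which the labels give for the WT mice. H2-Eb2, the neighbouring beta chain gene, had 17 counts over all libraries.

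Library totals ran from 14.9 to 21.1 M counts with a median of 17.8 M. The labelled tissue held for most libraries by the hippocampal neuron markers, 9 listed genes whose summed CPM (counts per M counts, scaled with TMM) had a median of 966. It was 272 in library 4 of 5xFAD-Dp16 sham mice, 421 in library 2 of 5xFAD tofacitinib mice and 322 in library 3 of WT tofacitinib mice. The same 3 libraries were the highest in 9 markers of thalamus and striatum, at 682 to 1950 CPM. The members' fits were therefore repeated without them. Means, correlations, pathway counts and marker list values include all 3 unless stated. In bulk tissue, more cells of a type and more RNA per cell cannot be told apart.

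H2-Aa was called higher in mice with the extra segment, and the other chain genes, Cd74, H2-Ab1 and H2-Eb1, had positive fold changes that did not pass the test. The H2-Aa call was lost without library 4 of the 5xFAD-Dp16 sham mice or without the 3 libraries low in hippocampal markers. It was also lost with a replicate block or a meninges marker term, as given below. In 1 fit of all libraries (edgeR, a mean per group and a term for sex, p adjusted by Benjamini-Hochberg over all genes), the segment was tested as the mean over its 4 pairs of groups. It called 242 genes at an adjusted p under 0.05, 1.38% of the 17518 tested, and 0.902% were called higher. H2-Aa rose by 1.30 on the log2 scale (SE 0.29, adjusted p = 0.0131), the only 1 of the 4 chain genes called. H2-Eb1 at 1.16 (SE 0.33, adjusted p = 0.0762), H2-Ab1 at 1.00 (SE 0.29, adjusted p = 0.0796) and Cd74 at 0.77 (SE 0.24, adjusted p = 0.124) did not pass. The median log2 fold change of the 4 chain genes was 1.08, beside -0.00 over all genes tested. All 4 had an unadjusted p under 0.05, which 12.8% of all genes had. Cd74, H2-Aa and H2-Ab1 were over the filter's minimum in all 34 libraries and H2-Eb1 in 33, while Ciita was over it in 3, all of which carry the segment. Its value (adjusted p = 0.0265) is therefore described apart and not counted.

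**Figure D1:**
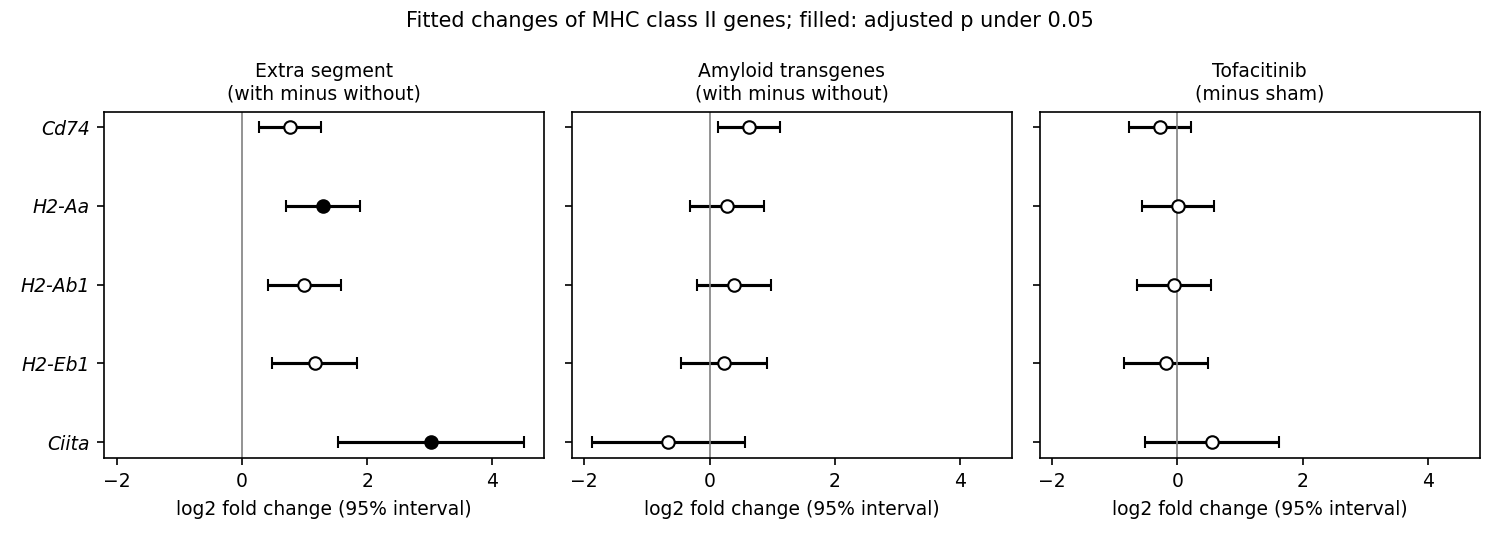
Fitted log2 fold changes of the 5 MHC class II genes (points) with 95% intervals (whiskers) for the extra segment, the amyloid transgenes and tofacitinib, each a mean over 4 pairs of groups; filled points have an adjusted p under 0.05. H2-Aa (1.30) and Ciita (3.02, a value that depends on the fit's prior count, for a gene that passed the filter only through libraries with the segment) are filled for the segment, and no point is filled for the amyloid transgenes or tofacitinib.

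H2-Aa carried the clearest difference. Sham 5xFAD-Dp16 mice had 3.48, 1.18 and 10.1 CPM, against 1.81, 0.673, 2.08 and 3.22 CPM in sham 5xFAD mice. Sham Dp16 mice had 6.14, 4.02 and 4.17 CPM, against 1.01, 2.47, 1.82, 1.15 and 0.876 CPM in sham WT mice. The Dp16 and WT sham groups did not overlap, while 1 of 3 5xFAD-Dp16 sham animals lay among the 5xFAD sham animals. How many of all genes part these small groups was not counted. This and the like statements on H2-Ab1, H2-Eb1 and Cd74 below are therefore descriptions, of genes that moved together. Choroid plexus markers summed to 900 to 2786 CPM in sham Dp16 mice and to 22.2 to 3908 CPM (median 135 CPM) in sham WT mice. Their part in the H2-Aa difference was not tested. With tofacitinib, 5xFAD-Dp16 mice had 6.64, 2.01, 7.65 and 1.06 CPM, against 1.79, 3.01, 1.36, 3.29 and 2.95 CPM in 5xFAD mice. Tofacitinib Dp16 mice had 3.59, 6.12, 2.96, 4.06 and 2.69 CPM, against 0.728, 2.22, 1.10, 3.30 and 0.801 CPM in WT mice. Both of these pairs overlapped, and the 5xFAD-Dp16 animals split into a high and a low pair. Over all animals H2-Aa averaged 4.40 ± 2.52 CPM with the segment (n = 15) and 1.88 ± 0.94 CPM without it (n = 19).

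The H2-Aa call rested on library 4 of the 5xFAD-Dp16 sham mice, the only male of that group and the highest of all 34 libraries in Cd74, H2-Aa, H2-Ab1 and H2-Eb1. Without it the H2-Aa fold was 0.98 with an adjusted p of 0.0945. Without the 3 libraries low in hippocampal markers it was 0.99 (adjusted p = 0.106). The direction held without any other single library, and so did the call. With the replicate number as a block it was 1.24 (adjusted p = 0.0620), though equal numbers were not found to pair the animals.

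H2-Ab1 and H2-Eb1 followed H2-Aa closely. Leaving out each library in turn gave segment folds of 0.69 to 1.10 for H2-Ab1 and 0.74 to 1.26 for H2-Eb1. Cd74 ran from 0.49 to 0.86. The highest adjusted p in these edgeR fits were 0.303, 0.333 and 0.410. Without library 4 of the 5xFAD-Dp16 sham mice 0 of the 4 chain genes were called. H2-Ab1 averaged 5.14 ± 3.14 CPM with the segment and 2.63 ± 1.28 CPM without it. In library 4 of the 5xFAD-Dp16 sham mice H2-Ab1 reached 13.2 CPM, against 3.38 and 2.90 CPM in the other sham animals of that genotype. Sham 5xFAD mice were alike in this gene, at 3.36, 3.16, 3.40 and 3.22 CPM. H2-Ab1 was at 5.50, 3.19 and 6.05 CPM in sham Dp16 mice, against 1.20, 3.03, 2.37, 0.985 and 2.00 CPM in sham WT mice. Those groups did not overlap, but only by the step between 3.19 and 3.03 CPM. H2-Eb1 averaged 4.75 ± 3.12 CPM with the segment and 2.15 ± 1.14 CPM without it. H2-Eb1 was at 5.28, 3.66 and 5.11 CPM in sham Dp16 mice, against 1.39, 2.81, 2.15, 1.48 and 1.19 CPM in sham WT mice, again without overlap. As for H2-Aa, the share of all genes that part these groups was not counted. H2-Eb1 reached 13.4 CPM in 5xFAD-Dp16 sham library 4, against 2.42 and 2.24 CPM in the other sham animals of that genotype, which lay within the 1.61 to 4.69 CPM of sham 5xFAD mice.

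Cd74, the invariant chain gene (chromosome 18, 60803848 to 60812652, plus strand), had higher group means in all 3 modified genotypes than in WT, though no pair of groups passed the test. Sham 5xFAD-Dp16 mice had 13.1, 5.99 and 36.5 CPM, sham 5xFAD mice 9.66, 12, 16.4 and 11.8 CPM and sham Dp16 mice 15.9, 8.39 and 12.2 CPM. Sham WT mice had 2.54, 8.37, 7.26, 4.00 and 4.38 CPM of Cd74. Every sham 5xFAD and Dp16 animal lay above every sham WT animal, the lowest of Dp16 only just (8.39 against 8.37 CPM), and 1 of 3 sham 5xFAD-Dp16 animals did not. That is a description, since the share of all genes that part these groups was not counted. In tofacitinib mice Cd74 was at 15.3, 7.51, 20.3 and 6.07 CPM in 5xFAD-Dp16, at 12.1, 8.45, 6.00, 11.2 and 5.95 CPM in 5xFAD and at 10.3, 14.9, 9.70, 12.3 and 3.47 CPM in Dp16 animals. Tofacitinib WT mice had 3.34, 7.83, 4.59, 10.6 and 4.52 CPM of Cd74, and animals of all 3 other genotypes fell within that range. Over all animals Cd74 averaged 12.8 ± 7.94 CPM with and 7.95 ± 3.74 CPM without the segment.

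**Figure D2:**
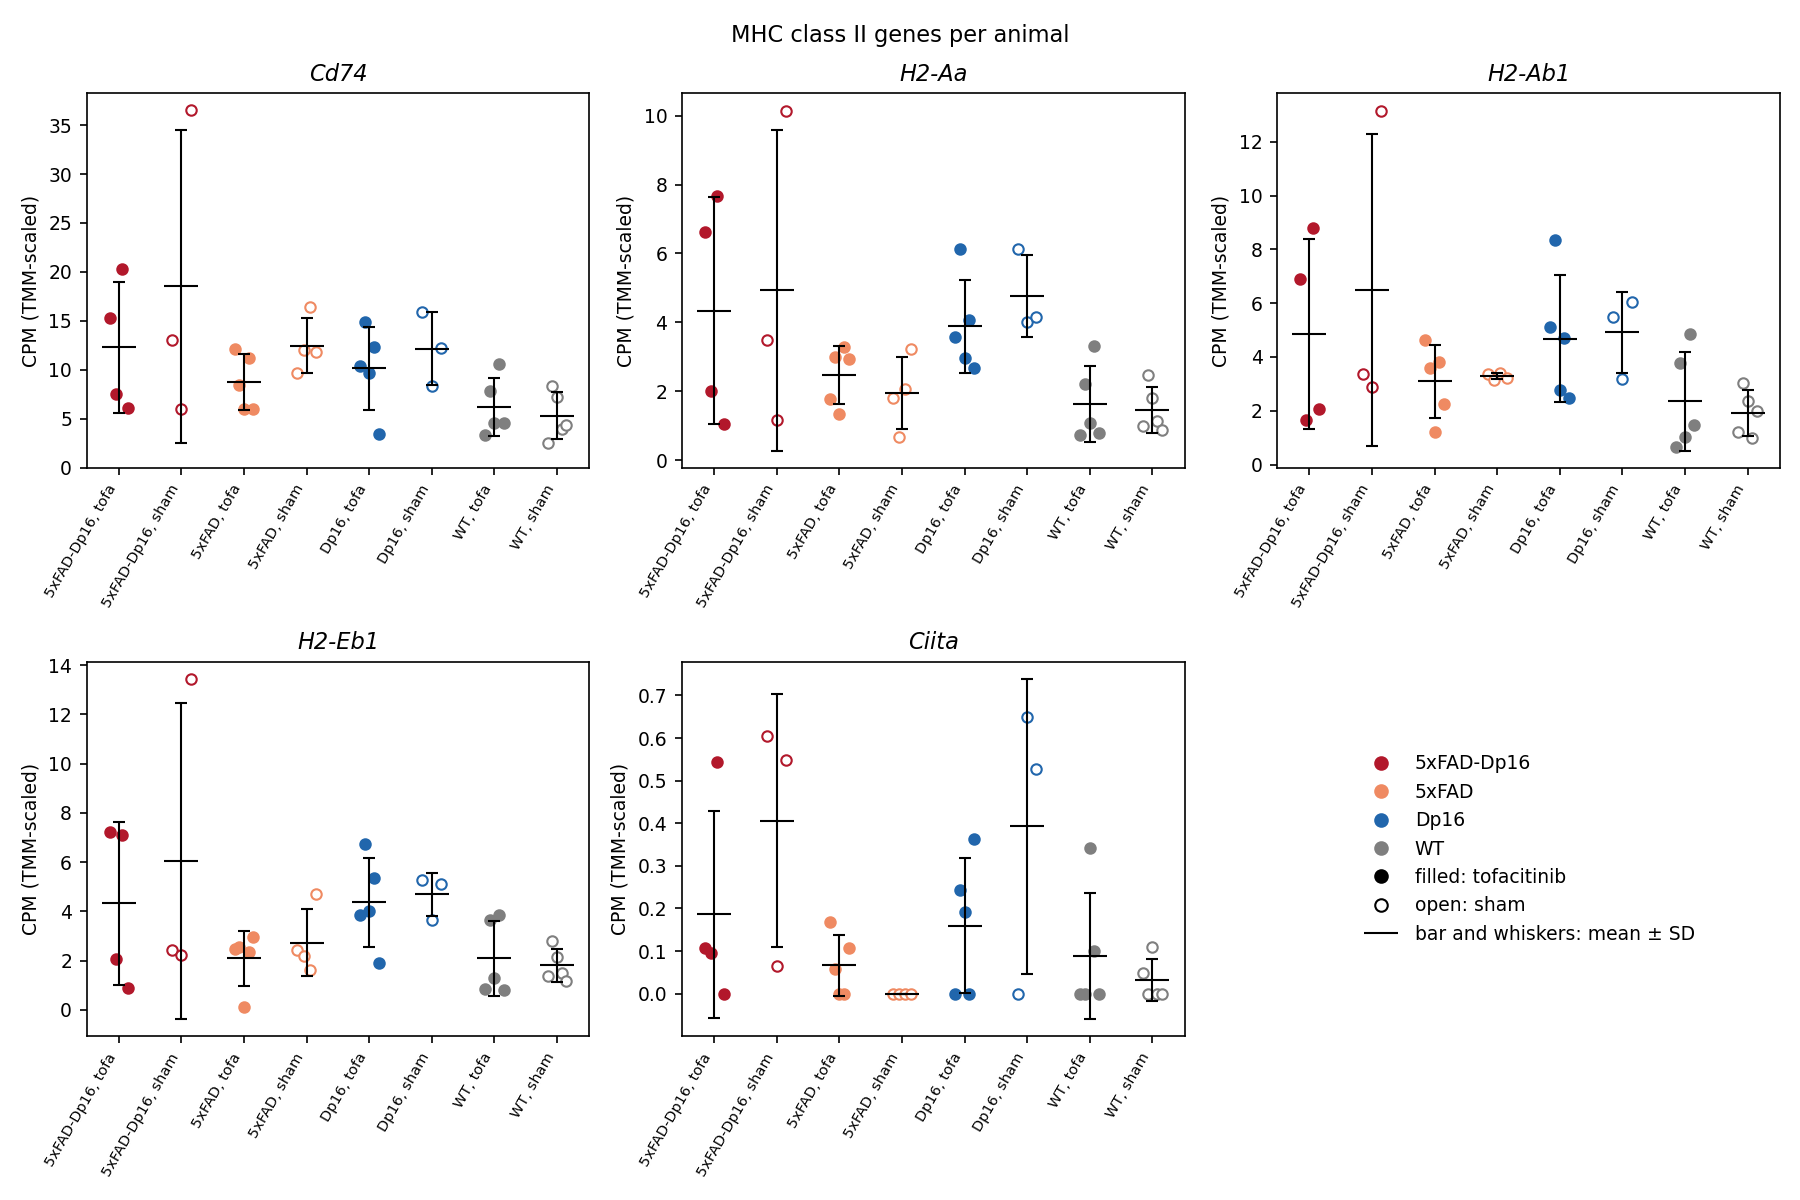
Level of each MHC class II gene in CPM (vertical axes, scaled with TMM and drawn to a different range for each gene) by genotype and treatment; each point is 1 animal, and the bar with whiskers is the mean ± SD. Library 4 of the 5xFAD-Dp16 sham group is the top point for Cd74 (36.5), H2-Aa (10.1), H2-Ab1 (13.2) and H2-Eb1 (13.4), and all 4 sham 5xFAD animals are at 0 for Ciita.

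Ciita, the coactivator, was near the limit of detection. Its gene (chromosome 16, 10480059 to 10528418, plus strand) shares its chromosome with the extra segment (75540514 to 97962622) but ends 65.0 Mb before it. With the segment it had 73 counts over 15 libraries, 4 of them at 0, and without it 16 counts over 19 libraries, 12 of them at 0. The means were 0.263 ± 0.251 CPM with and 0.0492 ± 0.0879 CPM without the segment, a ratio of 5.34. The fitted log2 fold change of 3.02 (SE 0.73) depends on the prior count of the fit, since 1 of the groups in it had no read at all. Ciita passed the filter, which asks for 0.562 CPM in at least 3 libraries, through exactly 3 libraries that all carry the segment. Its call in the filtered fit is therefore given as a value and not as support. Without the filter its adjusted p was 0.0012, a value that rests on the same few reads and is not support either. That fit called 422 genes higher and 283 lower of 31281, against 158 higher of 17518 with the filter. Leaving out library 2 or 3 of the Dp16 sham mice, library 5 of the Dp16 tofacitinib mice or library 3 of the 5xFAD-Dp16 tofacitinib mice each raised the adjusted p above the threshold, to 0.0533 or more.

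By group the Ciita reads were few. Sham 5xFAD-Dp16 mice had 12, 1 and 10 counts, and sham 5xFAD mice had none in 4 libraries, which allows up to 3 counts or 0.155 to 0.173 CPM in each. The sham 5xFAD-Dp16 mean of 0.406 CPM was 2.35 times the highest of these limits, but the animal with 1 count (0.0658 CPM) lay below them. The ratio leaves out the counting error of that mean. It is a description only, since Ciita passed the filter only through libraries with the segment. Sham Dp16 mice had 0, 11 and 9 counts of Ciita, against 1, 0, 2, 0 and 0 in sham WT mice. Tofacitinib animals had 2, 2, 10 and 0 counts of Ciita in 5xFAD-Dp16, against 3, 1, 0, 0 and 2 counts in 5xFAD. They had 0, 5, 4, 0 and 7 counts in Dp16, against 0, 0, 5, 2 and 0 counts in WT. Reads were thus uneven within the groups, and libraries at 0 occurred in 7 of the 8. Dexi, a gene on the opposite strand that overlaps Ciita from 10502531 on, had 399 to 761 counts in each library. The libraries were strand-specific, but no source used here says how strand was set in counting, so reads of the pair may be shared. Dexi itself had a segment fold of -0.03 on the log2 scale (SE 0.06, adjusted p = 0.914).

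Against WT no member was called in any separate pair of groups. In sham mice 5xFAD-Dp16 against WT called 0.959% of all genes and 0 of 5 members. Cd74 was nearest at 1.80 (log2, SE 0.49, adjusted p = 0.0751), and H2-Aa, H2-Ab1 and H2-Eb1 were between 1.73 and 1.75. Without library 4 of the 5xFAD-Dp16 sham mice Cd74 was at 0.81 (adjusted p = 0.927), H2-Aa at 0.63, H2-Ab1 at 0.62 and H2-Eb1 at 0.23. Without the 3 libraries low in hippocampal markers Cd74 was at 0.82 (adjusted p = 0.769). Leaving out library 2 of the 5xFAD-Dp16 sham mice brought Cd74 (2.20, adjusted p = 0.0198) and H2-Aa (2.19, adjusted p = 0.0432) past the threshold. Sham 5xFAD against WT called 0.445% of genes and 0 members, with Cd74 at 1.20 (SE 0.46, adjusted p = 0.743) and H2-Aa at 0.37 (SE 0.57). Sham Dp16 against WT called 0.308% of genes and 0 members, with H2-Aa at 1.74 (SE 0.59, adjusted p = 0.412) and Cd74 at 1.23 (SE 0.50, adjusted p = 0.543). These 3 comparisons share the sham WT animals. In tofacitinib mice the same pairs called 0.537%, 0.320% and 0.268% of genes and 0 members each, with H2-Aa at 1.42 (SE 0.55), 0.60 (SE 0.53) and 1.28 (SE 0.53). Sham 5xFAD-Dp16 against sham 5xFAD called 0.268% of genes and 0 members, and sham 5xFAD-Dp16 against sham Dp16 called 0 genes.

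In the order of the 8 group means, sham 5xFAD-Dp16 mice stood highest for each of the 5 genes, which rested on library 4. Without it their means were 9.52 CPM for Cd74, 2.33 CPM for H2-Aa, 3.14 CPM for H2-Ab1 and 2.33 CPM for H2-Eb1, each the fifth from the top and below sham Dp16 mice (12.2, 4.78, 4.91 and 4.68 CPM), and Ciita was at 0.335 CPM, against 0.393 CPM in sham Dp16 mice. Sham WT mice stood lowest for the 4 chain genes, and sham 5xFAD mice for Ciita. Of the 7 steps between neighbours in that order, none exceeded the larger of the neighbours' SDs for Cd74, H2-Ab1, H2-Eb1 or Ciita. For H2-Aa 1 step did, that between tofacitinib Dp16 mice at 3.88 ± 1.36 CPM and tofacitinib 5xFAD mice at 2.48 ± 0.85 CPM.

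The amyloid transgenes called none of the members. As the mean over 4 pairs of groups they called 279 genes, 1.59% of those tested, nearly all higher. Cd74 was at 0.63 (log2, SE 0.24, adjusted p = 0.301). It averaged 12.4 ± 7.67 CPM in 16 animals with and 8.03 ± 4.11 CPM in 18 animals without the transgenes. H2-Ab1 was at 0.39 (SE 0.29), H2-Aa at 0.28 (SE 0.29), H2-Eb1 at 0.23 (SE 0.33) and Ciita at -0.66 (SE 0.60). Without the 3 libraries low in hippocampal markers H2-Aa and H2-Eb1 turned to -0.01 and -0.15. The interaction of transgenes and segment called 0 genes, with members between -0.45 and 1.46 and standard errors of 0.48 to 1.25, so only large differences between the genotypes' responses could have been seen.

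Genes that work with the class II molecule were counted for both modifications, beside 1.59% of all genes called with the transgenes and 1.38% with the segment. The counts of both were not tested against each other. With the transgenes 9 of 12 microglia markers and 10 of 12 markers of plaque-associated microglia were also called higher, and their part in the counts below was not tested. Of 5 tested genes for other chains and peptide loading, the transgenes raised 1, H2-DMb1, a chain of the peptide loader H2-DM, by 0.70 (SE 0.17, adjusted p = 0.0241). The segment called none of the 5. H2-Ob and H2-Oa, chains of the H2-O inhibitor of loading, were at 1.09 (SE 0.32, adjusted p = 0.0873) and 0.91 (SE 0.32, adjusted p = 0.208) with the transgenes.

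Of 13 tested genes of class II processing and trafficking, the transgenes raised 5 and the segment none. Ctss, the cathepsin that makes the last cuts in the invariant chain, rose by 0.87 (SE 0.11, adjusted p = 8.43e-06). Ctsl, another cathepsin, rose by 0.41 (SE 0.06), the endopeptidase Lgmn by 0.35 (SE 0.05), the lysosomal reductase Ifi30 by 0.53 (SE 0.14) and Ctsb by 0.21 (SE 0.05). Their adjusted p ran from 8.43e-06 to 0.0492.

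Of 14 tested regulators, the transgenes raised 2. These were Irf8 (0.99, SE 0.13) and Spi1 (0.53, SE 0.13), factors of the macrophage lineage. With the segment Rfx5, a subunit of the RFX factor that binds the X box, fell by 0.41 (SE 0.09, adjusted p = 0.0163), and none of the 14 was called higher. The NF-Y subunits Nfya, Nfyb and Nfyc were at -0.09, -0.10 and -0.17 with the segment, and none passed.

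Of 15 tested genes of the interferon-gamma axis, which shares Irf1 with the regulators, the segment raised 3 and the transgenes 5. With the segment these were Ifngr2, a chain of the interferon-gamma receptor that lies in the segment itself (0.58, SE 0.09), and the interferon-induced GTPases Iigp1 (0.78, SE 0.11) and Gbp3 (0.51, SE 0.13). With the transgenes they were the T cell attractant Cxcl10 (1.84, SE 0.44) and the GTPases Iigp1, Gbp2, Gbp3 and Irgm1 (0.47 to 0.66). Of 7 tested partners on T cells and co-stimulators the transgenes raised 1, Lag3 (0.87, SE 0.15), and the segment none. Lag3 is a receptor of T cells that binds class II molecules and is also made in the brain. The median log2 fold change with the segment was 0.33 in the interferon-gamma list, 0.01 in the loading list and -0.02 in the processing list. With the transgenes it was 0.47, 0.70 and 0.17 in the same lists, beside 0.00 over all genes.

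**Figure D3:**
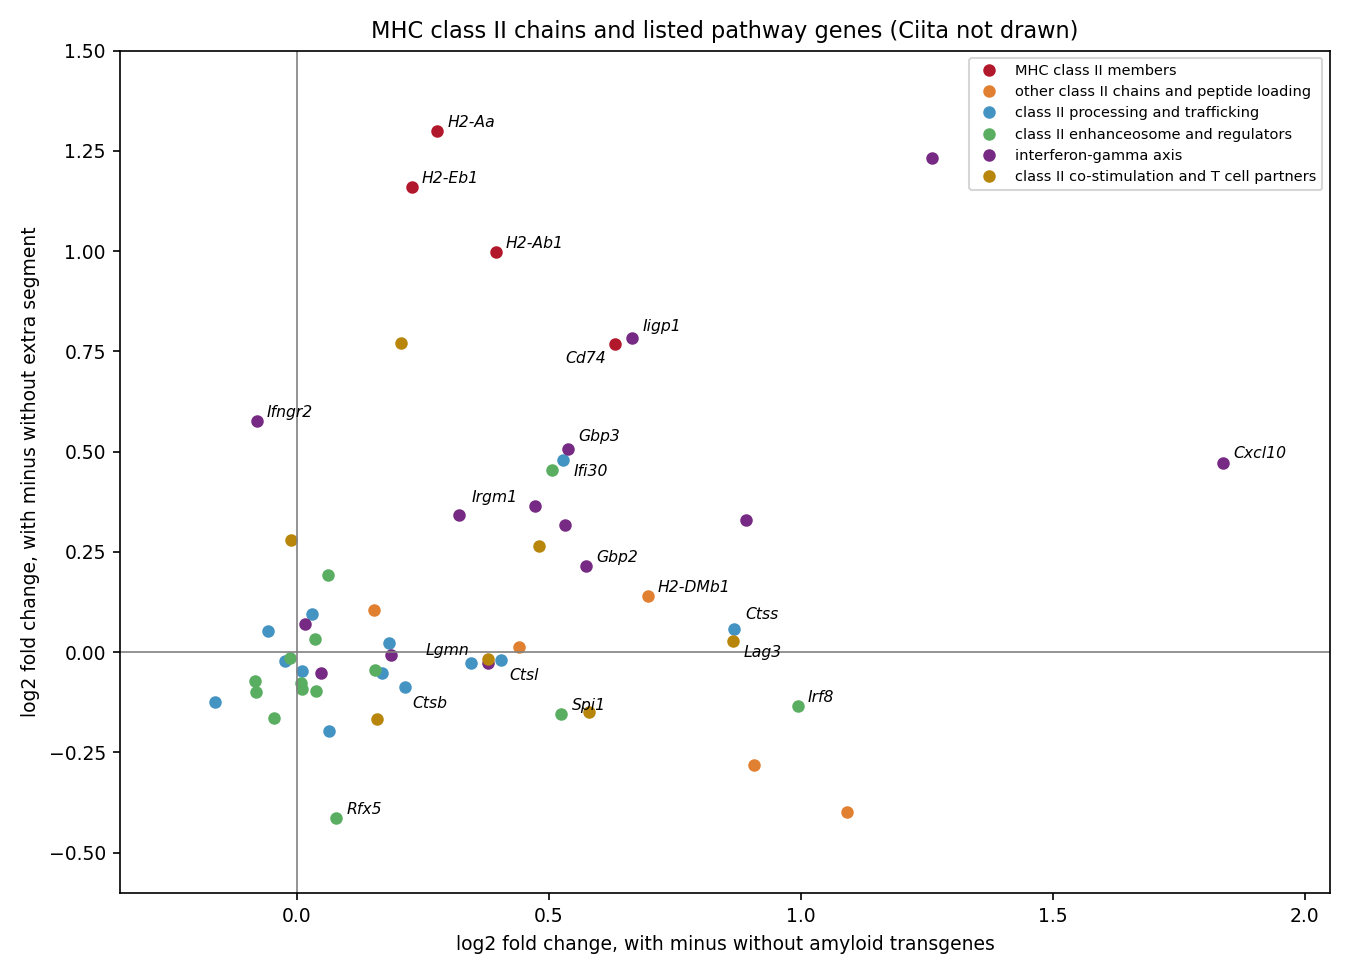
Fitted log2 fold change of the MHC class II chain genes and the listed pathway genes with the amyloid transgenes (horizontal axis) and with the extra segment (vertical axis); each point is 1 gene, coloured by list (Irf1 by the regulators' list), and the chain genes and those called in either comparison are named. The 4 chain genes lie high (0.77 to 1.30) and between 0.23 and 0.63 across, while Ctss, Irf8 and Cxcl10 lie far to the right.

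Tofacitinib did not detectably change the members. Its mean over the 4 genotypes called 0 of 17518 genes by edgeR, with 1354 (7.73%) at an unadjusted p under 0.05, and 0 members at either level. Cd74 was at -0.27 (log2, 95% interval -0.76 to 0.22), H2-Eb1 at -0.18 (-0.86 to 0.50), H2-Ab1 at -0.06 (-0.65 to 0.54) and H2-Aa at 0.01 (-0.56 to 0.59). Ciita was at 0.55 (-0.52 to 1.62). The interval of Cd74 thus reached to a lowering of about the size of the fold of 0.77 it had with the segment. The tests within a genotype called 0 members, with 0.00571% of genes called in Dp16 and 0 in the others. Cd74 was at -0.58 (SE 0.51) within 5xFAD-Dp16 mice, at -0.47 (SE 0.46) within 5xFAD mice, at -0.26 (SE 0.49) within Dp16 mice and at 0.22 (SE 0.45) within WT mice. The difference in the tofacitinib response with and without the transgenes was -0.50 (SE 0.48, adjusted p = 1) for Cd74. Ciita had 14 counts in 4 tofacitinib and 23 counts in 3 sham 5xFAD-Dp16 mice, and 16 counts in 5 tofacitinib and 20 counts in 3 sham Dp16 mice. It had 6 counts in 5 tofacitinib and 0 in 4 sham 5xFAD mice, and 7 counts in 5 tofacitinib and 3 in 5 sham WT mice, so its direction was not the same in the 4 genotypes. Females against males called 0.0628% of genes and 0 members, with log2 folds of -0.65 to -0.04.

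The 4 chain genes moved together from animal to animal. Pearson's r of log2 CPM over 34 libraries was between 0.72 and 0.88 for the 6 pairs of Cd74, H2-Aa, H2-Ab1 and H2-Eb1, and between 0.29 and 0.50 for Ciita with each of them. The genes share libraries and depth, and these values are descriptions. The members' mean level used from here on includes Ciita, which passed the filter only through libraries with the segment. Likeness to the 4 chain genes alone was not computed. Of 14451 other genes with a mean of at least 1 CPM, the 10 most like the mean level of the 5 members were Slc6a20a (r = 0.85), Aebp1 (0.83), Slc22a8 (0.82), Serping1 (0.81), Mgp (0.81), Dmpk (0.81), Spp1 (0.80), Bmp7 (0.80), Col1a2 (0.79) and Aldh1a2 (0.79). Without the 2 libraries farthest from the median of the members' level (5xFAD-Dp16 sham 4 and 5xFAD-Dp16 tofacitinib 3) these were between 0.70 and 0.79.

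Markers of meninges and fibroblasts moved with the members' mean level, which includes Ciita. The list (Col1a1, Col1a2, Dcn, Lum, Igf2, Slc6a13 and Col3a1) correlated with the members' mean level at r = 0.81 (rho = 0.82, n = 34), at 0.74 without the 2 farthest libraries and at 0.82 over deviations from the group means. Border-associated macrophage markers, such as Mrc1, stood at r = 0.64 (rho = 0.54) and 0.80 over deviations, but at 0.44 without the 2 farthest libraries. Dendritic cell markers were at r = 0.59 and choroid plexus markers at 0.54. Microglial markers were at -0.17 and markers of plaque-associated microglia at -0.00. B cell markers were at 0.41, and at 0.21 without the 2 farthest libraries. The 5 remaining lists (T cells, monocytes and neutrophils, endothelium, hippocampal neurons, thalamus and striatum) were between -0.24 and 0.44.

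**Figure D4:**
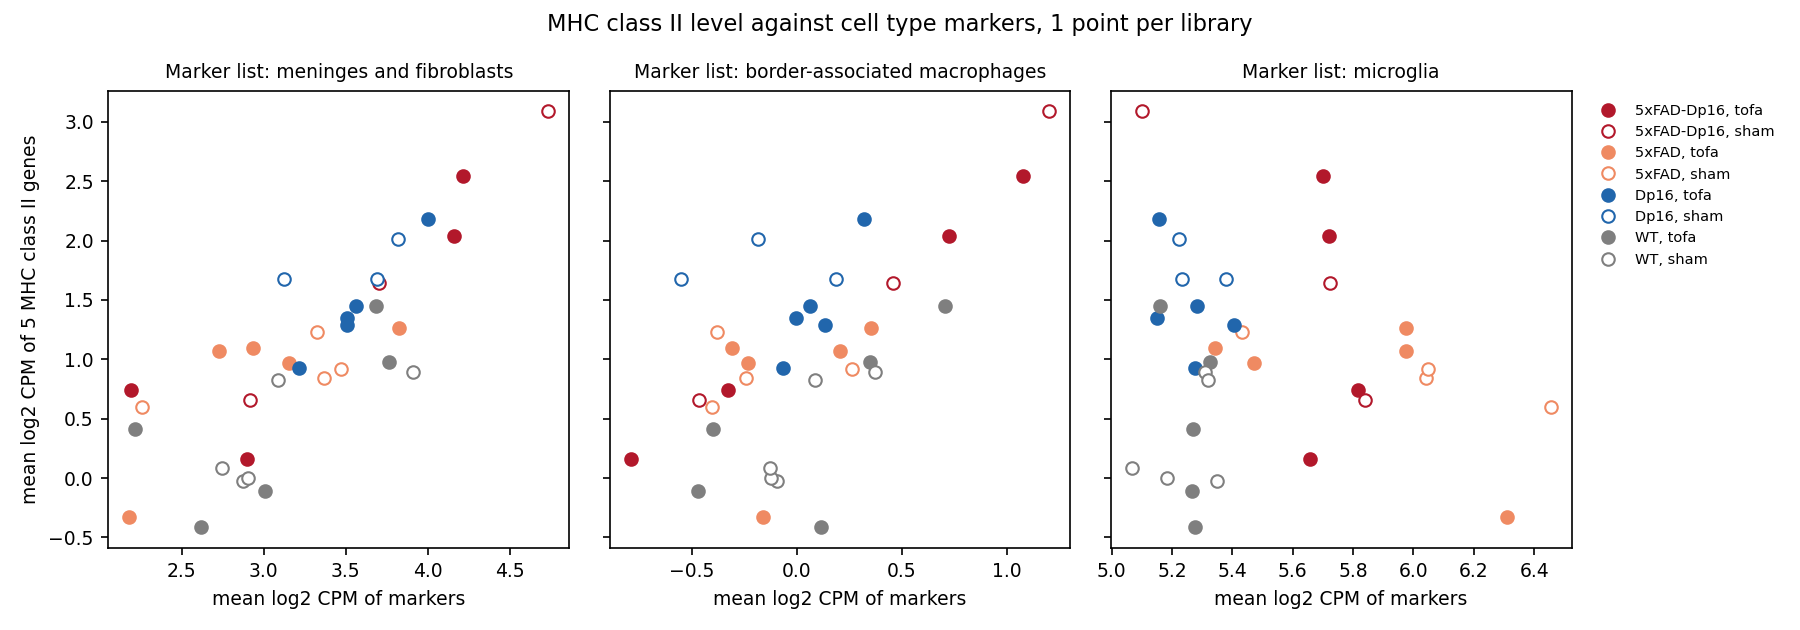
Mean log2 CPM of the 5 MHC class II genes (vertical axis) against the mean log2 CPM of 3 marker lists (horizontal axes); each point is 1 library, coloured by genotype, filled for tofacitinib and open for sham. The points rise together for the meninges and fibroblast list (r = 0.81) and the border-associated macrophage list (0.64) and not for the microglia list (-0.17). The mean includes Ciita, which passed the filter only through libraries with the segment.

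The same marker lists were compared with and without the segment. All 7 meninges and fibroblast genes had a fold above 0 (median 0.50, 0 called, 4 with an unadjusted p under 0.05), and their summed level was 44.6 to 221 CPM with and 36.3 to 135 CPM without the segment. No marker of this list was at 0 in any library. The highest sum, 221 CPM, was that of library 4 of the 5xFAD-Dp16 sham mice. Of 11 border-associated macrophage markers 9 were above 0 with the segment (median 0.26, 0 called), with sums of 23.9 to 44.7 CPM with and 18.4 to 33.7 CPM without it and 0 to 3 markers at 0 in a library. Of 8 tested dendritic cell markers 6 were above 0 (median 0.19, 0 called), and of 6 tested B cell markers 5 were above 0 (median 0.22) and 1 was called higher. The dendritic cell markers had sums of 28.1 to 44.0 CPM with and 23.8 to 40.2 CPM without the segment. Siglech had the highest median of that list, 16.3 CPM. Xcr1, Clec9a and Ccr7 were at 0 in 30, 31 and 29 of 34 libraries, and Clec10a, Cd209a and Ccl22 in 3, 3 and 2. Siglech, Zbtb46, Flt3, Dpp4 and Batf3 were at 0 in none. Choroid plexus markers ran from 28.5 to 5207 CPM with and from 22.2 to 5669 CPM without the segment, and 4 of 9 had a fold above 0. Their median sum in sham mice was 2386 CPM in Dp16 and 135 CPM in WT, but 70.9 CPM in 5xFAD-Dp16 and 2214 CPM in 5xFAD. In tofacitinib mice it was 378 CPM in Dp16 and 826 CPM in WT, and 504 CPM in 5xFAD-Dp16 and 55.6 CPM in 5xFAD. With the meninges level of each library as a further term, the segment's fold of H2-Aa was 0.64 (SE 0.20, adjusted p = 0.163) and that of Ciita 2.76 (SE 0.82, adjusted p = 0.130), and 0 members were called. With the border-associated macrophage level as the term, H2-Aa was at 0.87 (adjusted p = 0.00987) and stayed called. The part of these markers in the segment's difference was not tested beyond these fits.

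Microglial markers did not follow the segment's pattern. All 12 were below 0 with the segment (median -0.18, 0 called), at sums of 580 to 982 CPM with and 567 to 1514 CPM without it. The plaque-associated microglia list had sums of 482 to 1078 CPM with and 369 to 446 CPM without the amyloid transgenes. Cst7, a gene of plaque-associated microglia, ranged up to 48.1 CPM. The transgenes' fold of Cd74 with the meninges term was 0.60 with an adjusted p of 0.0395, the only member past the threshold in that fit.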

How the data were processed

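Groups, sex and replicate numbers were taken from the labels. The authors deposited a table of raw read counts per gene and a table of RPKM for the same libraries; the RPKM equalled the deposited counts divided by the library total and a length per gene (1416 bases for Cd74, 8225 for Ciita). Tools named in the submitters' processing notes, without roles, include HISAT2 2.1.0 and HTSeq 0.6.1, and the build is GRCm38. No source used here says how reads were assigned by strand or between similar genes. Gene positions are from GENCODE on GRCm38.

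Counts were filtered with filterByExpr by group, scaled with TMM and tested two-sided with edgeR 4.0.16 (robust quasi-likelihood, R 4.3.3), with 8 group means and sex, 25 residual degrees of freedom and a threshold of 0.05 on the adjusted p. The fit was checked on simulated counts. Log2 CPM used a prior count of 2. Levels per group are CPM, mean ± SD. The text names the 5 members, pathway genes past the threshold and the 10 genes most like the members, and a few others chosen after their values were seen. Of the listed pathway genes 1 is not reported here, and list counts leave it out. Members, lists and tests were chosen with earlier results of these data known. Alternatives were DESeq2 1.42.0 and its size factors, no filter, no sex term, a replicate block, the compared groups alone, leaving out libraries, and 2 marker terms added after seeing the data. The labels number the animals, so each library counts as 1 animal. The design text names 1 more 5xFAD tofacitinib and 1 more 5xFAD-Dp16 sham animal, not analysed here. Intervals and limits from counts cover counting error only.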

Additional observations from a re-analysis of the deposited data

Results flagged for a closer look

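In 1 of 29 groups of 4 or 5 animals examined gene by gene, a sample stood far from the others, and chance sets apart about 1 in 20 such groups. H2-Eb1 was at 0.129 CPM in library 4 of the 5xFAD tofacitinib mice, against 2.35 to 2.95 CPM in the other 4. The value rests on 2 counts (95% Poisson interval 0.242 to 7.22 counts, or 0.0156 to 0.466 CPM). In the same library H2-Aa had 21 counts, H2-Ab1 19 and Cd74 93, and the sum of meninges and fibroblast markers was 37.4 CPM.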

How the results depend on the processing

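Of the 18 comparisons, the count of members called kept its value under every alternative in 10. With the segment the count was 2, H2-Aa and Ciita, and Ciita passed the filter only through 3 libraries that carry the segment. Of the 4 chain genes alone 1 was called, against 4 with no filter, 3 by DESeq2, 1 with the border-associated macrophage term and 0 with the meninges term, with the replicate block or without the 3 libraries low in hippocampal markers. The count with Ciita was 5 with no filter on low counts, where 422 genes were called higher and 283 lower in all, against 158 and 84 with the filter. It was 4 by DESeq2 (H2-Ab1 adjusted p = 0.0228, H2-Eb1 0.0185), 1 with the border-associated macrophage term (Ciita 0.0643), 0 with the meninges term, 1 without the 3 libraries low in hippocampal markers and 1 to 3 when each library was left out in turn. With no filter (31281 genes tested), members were also called in sham mice for 5xFAD-Dp16 (4), 5xFAD (1) and Dp16 (4) against WT. Of all genes, 875 were called higher and 395 lower, 206 and 39, and 149 and 88 there. Sham 5xFAD-Dp16 against 5xFAD called 3 members (678 and 376 of all genes). In tofacitinib mice 5xFAD-Dp16 against WT called 3 (211 and 69) and Dp16 against WT 4 (112 and 102). The amyloid transgenes called 1 (726 and 158). For sham 5xFAD-Dp16 against WT the Cd74 fold was 1.79 (SE 0.20) without the filter and 1.80 (SE 0.49) with it. Other calls were 1 for sham 5xFAD-Dp16 against WT by DESeq2 (267 higher and 77 lower of all genes), and 0 to 2 leaving out a library. Sham 5xFAD against WT called 1 with the meninges term (88 and 0) and 1 with the border-associated macrophage term (86 and 0). Sham Dp16 against WT called 3 with the border-associated macrophage term (58 and 13) and 1 in the compared groups alone (75 and 23). The amyloid transgenes called 1 with the meninges term (292 and 2). The cause was not tested.

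With the replicate number entered as a block H2-Aa lost its call with the segment (1.24, adjusted p = 0.0620). The count of members there was 1, which was Ciita (3.21, adjusted p = 0.0482). That value is not support, since Ciita passed the filter only through libraries with the segment. Equal numbers were not found to pair the samples, since in 0 of 12 comparisons did every same-numbered pair correlate over 0.1. These pairs ran from -0.25 to 0.28, and differently numbered pairs were not compared, so pairing is not excluded. By the labels the numbers partly followed sex, so the block overlaps the sex term. The block changed no other count of members.

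Values near 0 changed sign. Without the 3 libraries H2-Aa was at -0.013 and H2-Eb1 at -0.15 with the transgenes, H2-Ab1 at 0.25 and H2-Eb1 at 0.19 with tofacitinib, and H2-Eb1 at -0.17 and Ciita at 1.14 in tofacitinib 5xFAD against WT mice. In that last pair H2-Eb1 was at -0.0017 with no sex term and -0.016 in the compared groups alone, and Ciita at 0.36 with the block. With tofacitinib H2-Ab1 was at 0.064 with the block and 0.012 with the meninges term, and H2-Aa at -0.10 with the border-associated macrophage term. Leaving out libraries in turn gave, with tofacitinib, -0.099 to 0.29 for H2-Aa, -0.18 to 0.21 for H2-Ab1 and -0.28 to 0.18 for H2-Eb1, and with the transgenes -0.12 to 0.34 for H2-Eb1. In tofacitinib mice against WT it gave -0.094 to 2.48 for Ciita in 5xFAD-Dp16, and -0.21 to 0.36 for H2-Eb1 and -0.91 to 1.15 for Ciita in 5xFAD. No member passed in these.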

Other observations

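The ratios between class II genes varied from animal to animal. The ratio of H2-Eb1 to H2-Aa in RPKM had a median of 0.778 over 34 libraries, and apart from the lowest and highest library it lay between 0.470 and 1.28. The lowest, 0.0644, was library 4 of the 5xFAD tofacitinib mice. The highest, 2.18, was library 2 of the 5xFAD sham mice, where H2-Aa had 13 counts (0.673 CPM, 95% Poisson interval 0.358 to 1.15 CPM). That library also had the highest ratio of Cd74 to H2-Aa, 14.2, against a median of 2.79 and a next highest of 6.28. The lowest were 1.03 and 1.61. Both libraries are 5xFAD without the segment. The antisense gene Gm20513, which overlaps H2-Eb1, had 0 counts in all 34 libraries.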
